A study of Mus musculus with 10 samples.

Results

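DLK (dual leucine zipper kinase, gene Map3k12) and LZK (leucine zipper kinase, Map3k13) head a kinase cascade that carries the news of axon damage in neurons, and 10 genes of this cascade were followed in retinal ganglion cells (RGCs), the neurons whose axons form the optic nerve. The members were the MAP3Ks Map3k12 and Map3k13, the MAP2Ks Map2k4 (MKK4) and Map2k7 (MKK7), the c-Jun N-terminal kinases Mapk8 (JNK1), Mapk9 (JNK2) and Mapk10 (JNK3), and the JNK-interacting scaffold proteins Mapk8ip1 (JIP1), Mapk8ip2 (JIP2) and Mapk8ip3 (JIP3). They were chosen by gene symbol, with earlier results of these data known, and all 10 were found among the 34254 genes counted. In this cascade DLK or LZK phosphorylates MKK4 and MKK7, which phosphorylate the JNKs, and the JIP scaffolds hold the layers together and tie them to motor proteins of axonal transport. DLK and LZK are known for driving the transcriptional response, and eventually the death, of RGCs after damage to the optic nerve, through JNK and the transcription factor Jun. The counts measure RNA, and phosphorylation, which sets the activity of these kinases, was not measured.

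The RGCs came from wild-type mice of strain 129S1/SvImJ, of both sexes and 12 weeks of age, and were isolated from uninjured retinas (6 libraries, 1683 cells) or 2 weeks after optic nerve crush, ONC (4 libraries, 1609 cells). Each batch pooled 10 retinas, so single animals are not resolved, and RGCs were captured on plates coated with an antibody against Thy1. Only cells that survived to this time and still bound the antibody were profiled. Transcripts were counted as UMIs (tags that mark 1 captured RNA molecule each), and values are given as CPM, counts per 1000000 UMIs after TMM scaling of the counts summed over the cells of a sample.

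Libraries injured 3 and injured 4 shared 421 of their 527 and 471 cell barcodes, against at most 1 in any other pair, and were averaged into a single sample (injured 3/4), so that 6 uninjured samples stood against 3 injured ones. A UMI of mCherry, a fluorescent protein that wild-type mice lack, was seen in most RGCs of injured 3 (86.0%) and injured 4 (84.3%), in fewer of injured 1 (7.99%) and injured 2 (15.02%), and in none of the uninjured RGCs. Elsewhere in the study AAV2 vectors that express mCherry were injected before ONC, but the labels name no vector for these libraries. Injured cells were shallower (median UMIs per cell of a library 11257 to 14695, against 20437 to 34337), with higher median shares of Malat1 RNA (6.37 to 7.78%, against 1.72 to 4.82%) and of ribosomal protein RNA (5.23 to 5.99%, against 2.48 to 4.45%). Of 8 pan-RGC markers, 5 were lower and 1 was higher in injured samples, and the summed CPM of all 8 was 5797 to 8239 in uninjured and 4283 to 5436 in injured samples. The 7 amacrine cell markers summed to 72.5 to 272 CPM in uninjured and 278 to 378 in injured samples, but C1ql2 (mean 17.6 and 196 CPM) and Slc6a9 (6.02 and 20.6 CPM) alone were called higher, and the other 5, Tfap2b and Gad1 among them, had lower means in injured samples (median log2 fold change of the list −0.57). The 7 Müller glia markers summed to 123 to 173 and 293 to 458 CPM, the 7 rod markers to 4.04 to 17.3 and 12.6 to 34.4, the 7 bipolar cell markers to 78.7 to 135 and 110 to 160, and the microglia, astrocyte, oligodendrocyte, cone and endothelial lists each stayed under 30 in every sample. Clu (mean 92.5 and 273 CPM) and Glul (43.8 and 82.2 CPM) held most of the Müller glia sums. In that list 4 genes were called higher and 1 lower, and Apoe had means of 7.97 and 2.02 CPM. Of 3 rod genes tested 1 was called higher, and Pde6b had means of 0.318 and 10.5 CPM. Prkca (98.4 and 138 CPM) held most of the bipolar sums, the other 6 genes stayed under 5 CPM, and none was called. The part of these differences in the results below was not tested, except where a value is given.

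The 3 JNKs are encoded by separate genes that share most of their coding sequence, so the stretch that carries the activation site is shown to compare them. MKK4 and MKK7 phosphorylate a threonine and a tyrosine that stand on either side of a proline, and the codons of these residues are in capitals, with 30 bases on either side. The stretches were read from GRCm39 at chr14:33114930-33114998 (Mapk8, reverse strand, exon 6 of 12), chr11:49763627-49763695 (Mapk9, forward strand, exon 6 of 12) and chr5:103137517-103137585 (Mapk10, reverse strand, exon 8 of 12), in the canonical transcripts of GENCODE vM39.
Mapk8: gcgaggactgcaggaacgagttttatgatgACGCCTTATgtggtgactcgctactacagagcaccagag
Mapk9: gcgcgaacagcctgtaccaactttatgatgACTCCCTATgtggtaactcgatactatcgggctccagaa
Mapk10: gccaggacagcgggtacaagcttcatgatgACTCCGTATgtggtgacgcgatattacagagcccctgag
Over these 69 bases Mapk8 differed from Mapk10 at 14 positions, and Mapk9 differed from each of the others at 18. Over the whole coding sequence, 75.5% of aligned positions were identical between Mapk8 and Mapk9, 65.0% between Mapk8 and Mapk10 and 64.6% between Mapk9 and Mapk10. The longest run shared by any pair of these transcripts was 23 bases, and in their last 500 bases, the part nearest to where this 3′ assay reads, no shared run was longer than 8 bases. Reads from that part of the transcript can therefore be told apart by sequence. In the other families the longest run shared by a pair of transcripts was 17 bases (Map3k12 and Map3k13).

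In GRCm39 the members are Map3k12 at chr15:102406017-102427148 (reverse strand), Map3k13 at chr16:21613096-21752189 (forward), Map2k4 at chr11:65579068-65679182 (reverse), Map2k7 at chr8:4288734-4297897 (forward), Mapk8 at chr14:33099855-33169157 (reverse), Mapk9 at chr11:49737514-49779038 (forward), Mapk10 at chr5:103055814-103359375 (reverse), Mapk8ip1 at chr2:92214016-92231709 (reverse), Mapk8ip2 at chr15:89337641-89348673 (forward) and Mapk8ip3 at chr17:25111127-25155995 (reverse). Mapk10 spans 304 kb and Map2k7 9.16 kb. The sources used here do not say whether intronic reads were counted, and if they were, the level of a long gene such as Mapk10 and its share of JNK UMIs include reads from outside the exons. Exons of Map2k7 overlap Gm49320, a gene model on the same strand that is among the genes counted and held 0 UMIs in every library, and exons of Map3k13 overlap 1300002E11Rik on the same strand. Reads in such overlaps can be split or dropped, so the counts of Map2k7 and Map3k13 are uncertain to that extent.

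The comparison of injured with uninjured RGCs asked how each layer of the cascade stood 2 weeks after ONC. The cascade did not move as a block: JNK1 and JIP1 were upregulated, JNK2, JNK3, MKK7 and LZK were downregulated, and DLK, MKK4, JIP2 and JIP3 did not pass the test. At an adjusted p under 0.05 (quasi-likelihood test of edgeR, p-values adjusted by Benjamini-Hochberg over 14234 genes), 6 of the 10 members were called, 2 higher and 4 lower, whereas 44.0% of all genes tested were called, 21.3% higher and 22.7% lower. In 5 of the 10 members (Map3k13, Mapk8, Mapk9, Mapk10 and Mapk8ip1) the samples of the conditions did not overlap, and so it was in 42.9% of all genes tested. The median log2 fold change was −0.19 over the members and −0.03 over all genes tested. These shares are near those of all genes, so the counts alone do not set the members apart. All p-values measure the spread between these libraries, since the labels do not say which libraries came from separate animals.

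**Figure D1:**
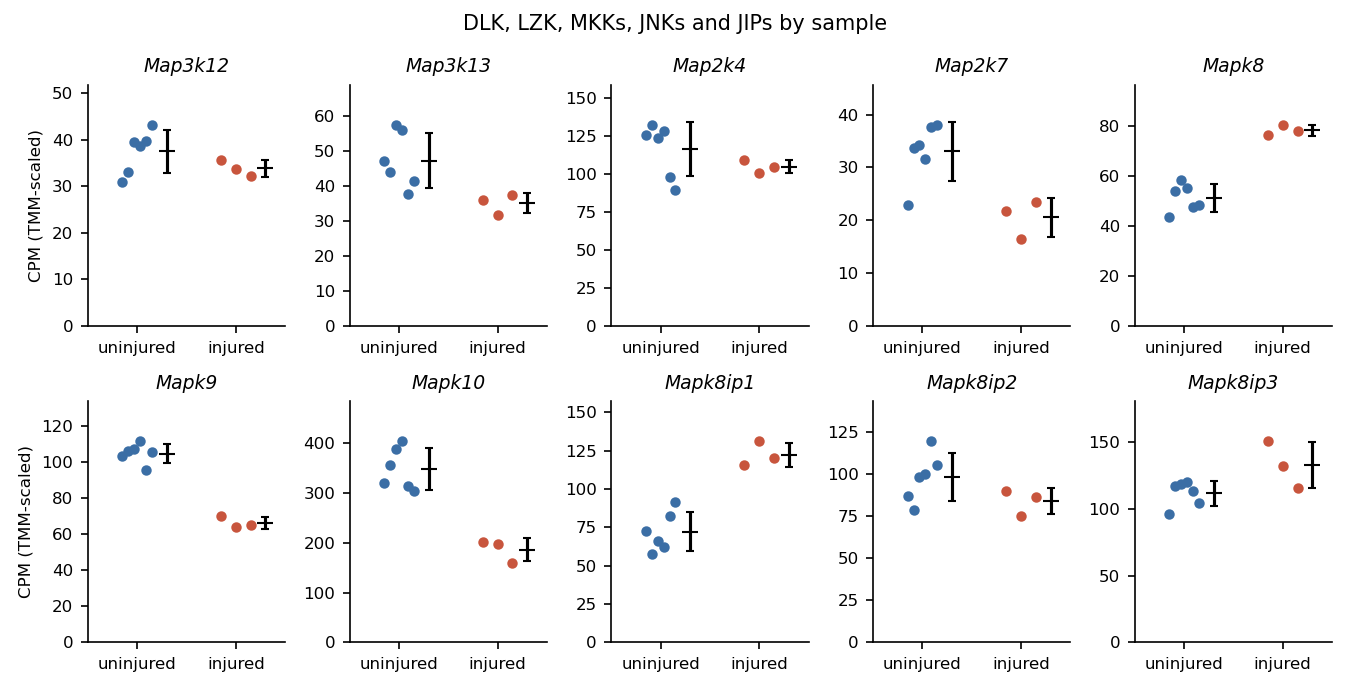
Level of each member in every sample, in CPM after TMM scaling (y axis, from 0, own scale in each panel), for 6 uninjured (blue) and 3 injured (red) samples, with the mean and SD in black beside the points. Mapk9 and Mapk10 sit lower, and Mapk8 and Mapk8ip1 higher, in every injured sample than in any uninjured sample, and the points of Map3k12 overlap.

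DLK is the kinase at the head of the cascade whose loss is known to protect RGCs from death after optic nerve injury. Map3k12 was 31.0 CPM in the lowest, 39.1 in the median and 43.3 in the highest uninjured sample, and 35.7, 33.7 and 32.2 CPM in injured 1, 2 and 3/4. The injured values lay within the uninjured range. Its log2 fold change was −0.15 ± 0.13 (SE) with an adjusted p of 0.370 (edgeR), and the interval of 2 SE either side ran from −0.42 to 0.11, so a fall of up to 0.42 on the log2 scale is within the error.

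LZK, the closest relative of DLK, can act in its place in RGCs. Map3k13 was 37.9 CPM in the lowest, 45.6 in the median and 57.6 in the highest uninjured sample, and 36.1, 31.9 and 37.6 CPM in the injured samples. The highest injured sample was just below the lowest uninjured sample. Map3k13 was downregulated 1.35-fold (log2 fold change −0.43 ± 0.16, adjusted p = 0.0433, edgeR), and this call held in 12 of 23 other settings. It was lost without uninjured 1, 2, 3 or 4 or without any injured sample (adjusted p 0.0654 to 0.163), and the log2 fold change was −0.46 without injured 3/4. With cells thinned to 8000 UMIs it was −0.25 (adjusted p = 0.337).

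MKK4 and MKK7 are the kinases that phosphorylate the JNKs. Map2k4 was 89.7 CPM in the lowest, 125 in the median and 133 in the highest uninjured sample, and 109, 101 and 105 CPM in the injured samples. Uninjured 5 and 6 (98.0 and 89.7 CPM) lay below every injured sample and uninjured 1 to 4 above every injured sample. The same libraries, uninjured 5 and 6, had the lowest median shares of Malat1 RNA (1.72 and 1.83%). Over all samples the log2 fold change was −0.15 ± 0.15 (adjusted p = 0.437, edgeR). Without uninjured 5 and 6, over libraries 1 to 4 of each condition with injured 3 and 4 as separate samples, it was −0.29 (adjusted p = 0.00490, edgeR). That fit counts the shared cells of injured 3 and 4 as independent, so its p overstates the evidence.

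Map2k7 was 22.9 CPM in the lowest, 33.9 in the median and 38.1 in the highest uninjured sample, and 21.7, 16.4 and 23.5 CPM in the injured samples. A single uninjured sample, uninjured 1, lay between the injured samples, and the other 5 lay above them. Map2k7 was downregulated 1.60-fold (log2 fold change −0.68 ± 0.18, adjusted p = 0.00857, edgeR). The call was lost without injured 2 (−0.54, adjusted p = 0.0530) and with similar libraries summed (−0.64, adjusted p = 0.0627). It was also lost in cells whose Malat1 share was 3 to 5%, where the change was −0.29 (adjusted p = 0.364). Both conditions hold this range, but uninjured 5 and 6 had only 7 and 8 cells in it. Each still counted as a sample, so the change in this range is imprecise.

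The JNKs are the output of the cascade, and JNK3 is the form found mainly in neurons and best known for a part in their death. Mapk10 was 304 CPM in the lowest, 338 in the median and 404 in the highest uninjured sample, and 201, 198 and 160 CPM in injured 1, 2 and 3/4. Every injured sample lay below every uninjured sample, and no sample lay between 201 and 304 CPM. Mapk10 was downregulated 1.87-fold (log2 fold change −0.90 ± 0.16, adjusted p = 5.95e-04, edgeR) and was called in all 23 other settings, with −0.78 without injured 3/4. In cells with 3 to 5% Malat1 it was −0.54 (adjusted p = 0.0225, edgeR), over 1.5 times smaller on the log2 scale. Uninjured 5 and 6 gave only 7 and 8 cells to that setting.

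JNK2 is expressed in most tissues. Mapk9 was 95.4 CPM in the lowest, 106 in the median and 112 in the highest uninjured sample, and 70.2, 64.0 and 65.0 CPM in the injured samples. The conditions did not overlap. Mapk9 was downregulated 1.58-fold (log2 fold change −0.66 ± 0.11, adjusted p = 4.68e-04, edgeR), and it was called in all 23 other settings, with log2 fold changes from −0.83 to −0.62.

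JNK1, which is also expressed in most tissues, went the opposite way. Mapk8 was 43.8 CPM in the lowest, 51.3 in the median and 58.5 in the highest uninjured sample, and 76.3, 80.6 and 78.1 CPM in the injured samples. The injured samples lay close together and above every uninjured sample. Mapk8 was upregulated 1.52-fold (log2 fold change 0.60 ± 0.12, adjusted p = 0.00159, edgeR) and was called in all 23 other settings, with 0.63 without injured 3/4. In cells with 3 to 5% Malat1 the change was 0.56 (adjusted p = 0.0472).

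The JIP scaffolds bind kinases of the cascade and kinesin, the motor that moves cargo toward the axon tip. Mapk8ip1 was 57.5 CPM in the lowest, 69.5 in the median and 91.5 in the highest uninjured sample, and 116, 131 and 120 CPM in the injured samples. All injured samples lay above all uninjured samples. Mapk8ip1 was upregulated 1.70-fold (log2 fold change 0.76 ± 0.15, adjusted p = 0.00155, edgeR) and was called in all 23 other settings, with 0.80 without injured 3/4.

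JIP2 and JIP3 gave no call. Mapk8ip2 was 98.4 ± 14.2 CPM (SD, n = 6) in uninjured and 84 ± 7.81 CPM (SD, n = 3) in injured samples, with a log2 fold change of −0.23 ± 0.14 (SE) and an interval from −0.52 to 0.06 (adjusted p = 0.223, edgeR). Mapk8ip3, a scaffold known for the transport of lysosomes and of injury signals along axons, was 111 ± 9.56 CPM (SD, n = 6) and 133 ± 17.5 CPM (SD, n = 3), with a log2 fold change of 0.25 ± 0.13 (SE) and an interval from −0.01 to 0.51 (adjusted p = 0.136, edgeR). In both genes the samples of the conditions overlapped.

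**Figure D2:**
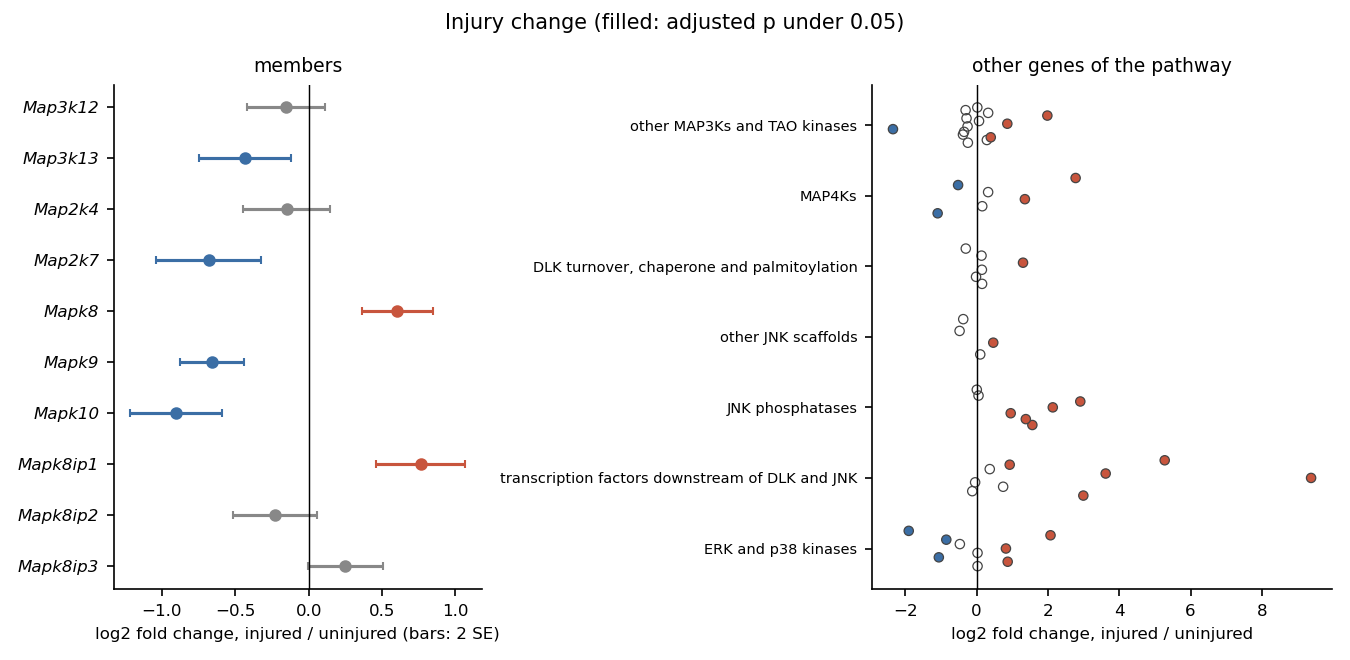
Log2 fold change of injured over uninjured RGCs (x axis) for the 10 members, with bars of 2 SE (left), and for the 55 tested genes of 7 lists of the same pathway, 1 point per gene (right). Red marks genes that were higher and blue genes that were lower at an adjusted p under 0.05, and grey or open points did not pass. Members moved by less than 1 on the log2 scale in either direction, whereas Atf3 moved by 9.37.

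Because the JNKs moved in opposite directions, the makeup of the JNK pool was compared within each sample, where it does not depend on scaling between libraries. UMIs were not divided by transcript length, so shares within a family are compared between conditions and not read as relative amounts of the genes. Mapk8 made up 10.2 ± 0.520% (SD, n = 6) of JNK UMIs in uninjured and 23.8 ± 1.94% (SD, n = 3) in injured samples. The share of Mapk10 was 68.9 ± 1.52% and 56.1 ± 2.95%, and that of Mapk9 20.9 ± 1.44% and 20.1 ± 1.41%. The share of JNK1 was higher by about as much as that of JNK3 was lower, and the share of JNK2 differed by less than its spread between samples. Summed over the 3 genes, JNK levels were 504 ± 50.9 CPM in uninjured and 331 ± 24.6 CPM in injured samples.

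The ratio of Mapk8 to Mapk9 UMIs was 0.425 to 0.546 in uninjured and 1.09 to 1.26 in injured samples, and the conditions did not overlap. The log2 difference was 1.27 (exact two-sided permutation test over 9 samples, p = 0.0238, the smallest that 6 against 3 samples can give), which did not pass after adjustment over the 6 ratios tested (adjusted p = 0.0714). The ratio of Mapk10 to Mapk8 plus Mapk9 was 1.98 to 2.42 in uninjured and 1.11 to 1.37 in injured samples, with a log2 difference of −0.79 and the same p and adjusted p by the exact permutation test. Both ratios separated all samples of the conditions. Full separation in both ratios alone could not pass after adjustment over the 6 ratios, because their p cannot be smaller with these sample numbers.

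Among the scaffolds, Mapk8ip1 made up 25.5 ± 3.37% of JIP UMIs in uninjured and 36.2 ± 3.27% in injured samples, and Mapk8ip2 34.8 ± 2.21% and 24.8 ± 2.38%. The share of Mapk8ip3 was 39.7 ± 4.47% and 39.0 ± 3.19%. The log2 ratio of Mapk8ip1 to Mapk8ip3 differed by 0.53 and that of Mapk8ip2 to Mapk8ip3 by −0.47 (exact two-sided permutation test, p = 0.0476 for each, adjusted p = 0.0714), and neither passed after adjustment. The summed JIP level was 282 ± 24.3 CPM in uninjured and 339 ± 17.2 CPM in injured samples.

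The upper layers shifted less clearly. The ratio of Map3k12 to Map3k13 was 0.657 to 1.05 in uninjured and 0.857 to 1.06 in injured samples (log2 difference 0.28, exact permutation p = 0.190). The ratio of Map2k4 to Map2k7 was 2.36 to 5.49 in uninjured and 4.46 to 6.14 in injured samples (log2 difference 0.55, exact permutation p = 0.0714, adjusted p = 0.0857). In both ratios uninjured and injured samples overlapped.

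**Figure D3:**
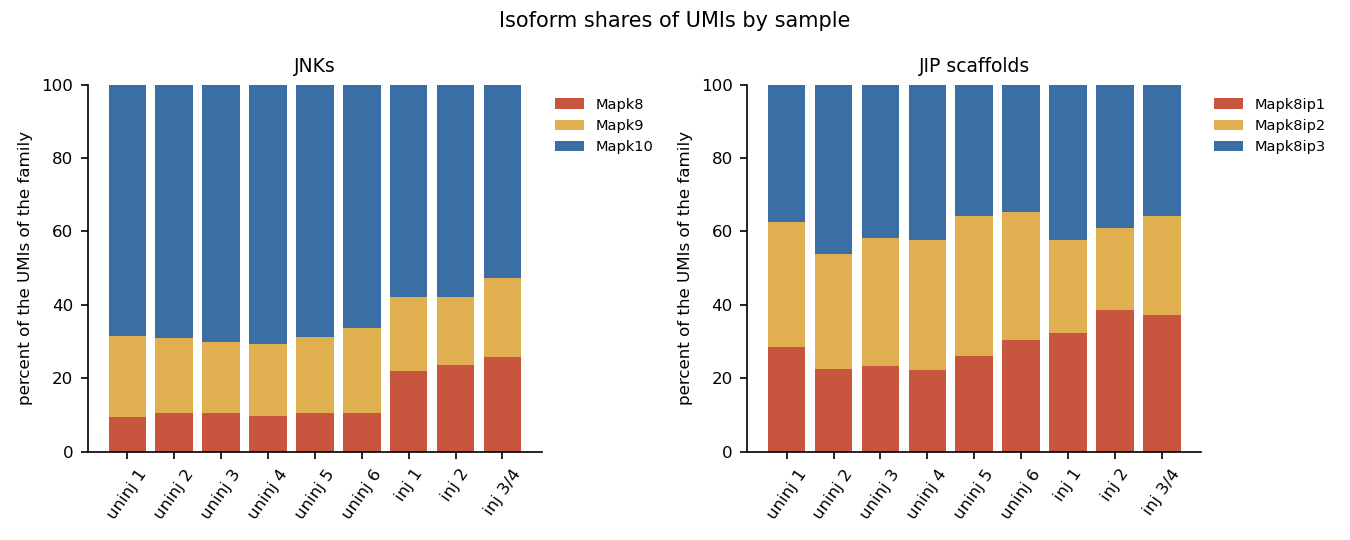
Share of the UMIs of the 3 JNKs (left) and of the 3 JIP scaffolds (right) held by each gene, in percent (y axis), stacked for every uninjured (uninj) and injured (inj) sample. The Mapk8 part is 9.39 to 10.6% in uninjured and 22.0 to 25.8% in injured samples, and the Mapk10 part shrinks from at least 66.4% to at most 57.8%.

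The share of cells with at least 1 UMI was also counted, after each cell was thinned to 8000 UMIs, which 1654 uninjured and 1376 injured cells reached. This share falls with fewer cells that hold the RNA and also with less RNA per cell, so it cannot tell these apart. A UMI of Mapk10 was present in 89.9 ± 3.46% (SD, n = 6) of the uninjured and 60.6 ± 5.00% (SD, n = 3) of the injured cells. At the depth as sequenced these shares were 98.5 ± 0.406% and 72.6 ± 4.63%, so RGCs without a Mapk10 UMI were more common after than before injury at either depth. A UMI of Mapk9 was present in 53.3 ± 5.62% of the uninjured and 37.0 ± 3.20% of the injured thinned cells.

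For the genes that were upregulated the thinned shares rose and the shares at full depth did not. Mapk8 was present in 33.0 ± 4.36% of the uninjured and 43.8 ± 1.09% of the injured thinned cells, but in 68.1 ± 9.93% and 63.1 ± 4.25% at full depth. Mapk8ip1 was found in 44.5 ± 5.09% and 60.5 ± 2.43% of thinned cells, but in 83.1 ± 3.09% and 76.6 ± 3.24% at full depth. Injured cells were the shallower ones, and only the thinned shares go with the CPM. The other thinned shares, uninjured then injured, were 24.8 ± 3.49% and 23.4 ± 1.80% for Map3k12, 27.6 ± 5.51% and 22.2 ± 1.90% for Map3k13, and 55.6 ± 6.88% and 54.3 ± 2.02% for Map2k4. They were 23.7 ± 3.68% and 15.7 ± 2.90% for Map2k7, 54.3 ± 4.56% and 43.1 ± 4.23% for Mapk8ip2, and 59.4 ± 4.12% and 59.3 ± 4.35% for Mapk8ip3. These shares restate the UMI sums and were not tested. The deposited cells are described as RGCs, so the share of a cell type that lacks these genes, which would show the level of free RNA, was not measured here.

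**Figure D4:**
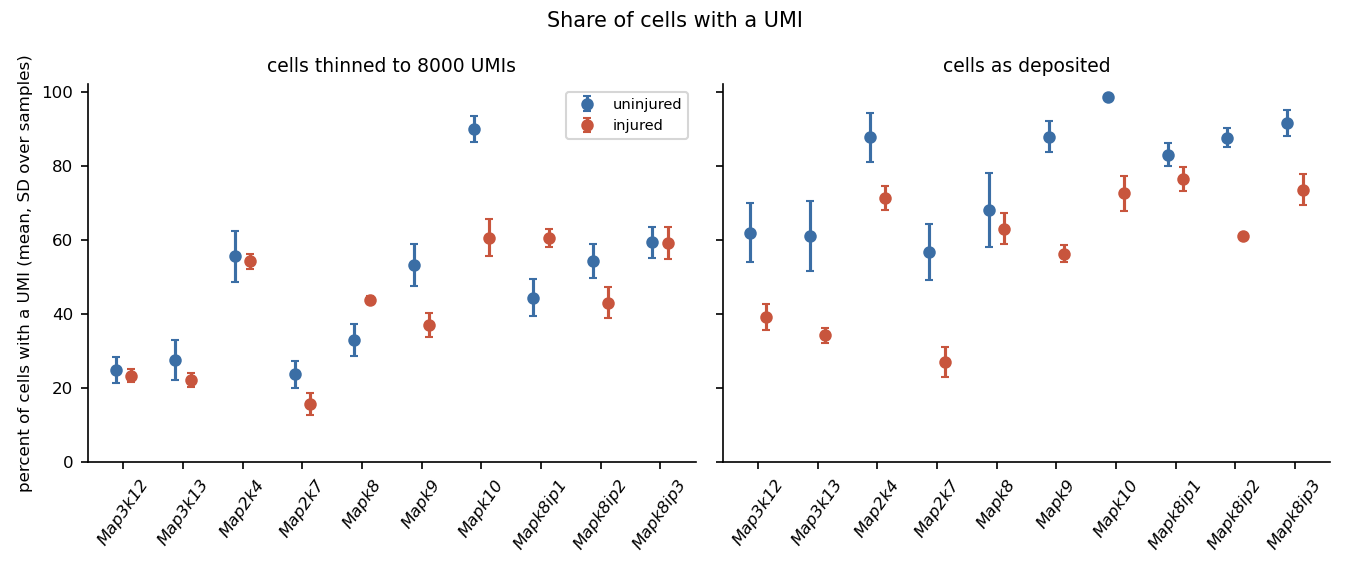
Percent of cells with at least 1 UMI of each member (y axis), as the mean and SD over 6 uninjured (blue) and 3 injured (red) samples, after thinning of each cell to 8000 UMIs (left) and at the depth as sequenced (right). At equal depth Mapk8 and Mapk8ip1 are found in more injured than uninjured cells, an order that is reversed at the depth as sequenced.

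Injured RGCs were next divided by Atf3, a transcription factor gene that is switched on by axon damage downstream of DLK and JNK. Injured cells with at least 3 Atf3 UMIs (269, 212, 377 and 315 cells in injured 1 to 4) were compared with injured cells with 0 (31, 28, 78 and 74 cells), within each sample. Cells with Atf3 held less DLK, LZK and JNK3 RNA and more JIP3 RNA than cells without it from the same libraries. At an adjusted p under 0.05 (edgeR with sample as a block, 12156 genes), 4 of the 10 members were called, against 18.2% of all genes tested.

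Mapk10 was 178, 172 and 125 CPM in the cells with Atf3 of injured 1, 2 and 3/4, and 411, 336 and 353 CPM in the cells without. The cells with Atf3 were lower in 3 of 3 samples, and the log2 fold change of −1.22 ± 0.19 (SE) passed the test (adjusted p = 1.39e-05, edgeR). It passed in all 6 other settings, with −1.38 when cells were thinned to 8000 UMIs and −1.08 without injured 3/4.

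Map3k13 was 31.2, 27.9 and 31.9 CPM in the cells with Atf3 and 51.8, 62.7 and 66.2 CPM in the cells without. Its log2 fold change of −0.98 ± 0.22 (SE) passed (adjusted p = 0.00176, edgeR), and it passed in all 6 other settings. Map3k12, which had not passed between injured and uninjured RGCs, was 30.6, 30.5 and 30.1 CPM in the cells with Atf3 and 80.5, 52.8 and 44.1 CPM in the cells without. The log2 fold change was −0.88 ± 0.23 (adjusted p = 0.00703, edgeR), lost without injured 1 (−0.64, adjusted p = 0.0953) or injured 2 (−0.93, adjusted p = 0.0612).

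Mapk8ip3 was 157, 140 and 122 CPM in the cells with Atf3 and 89.2, 82.4 and 85.6 CPM in the cells without, a rise of 0.70 ± 0.19 on the log2 scale (adjusted p = 0.00997, edgeR) that was lost without injured 1 (adjusted p = 0.0815) or injured 2 (adjusted p = 0.136). The other 6 members had log2 fold changes from −0.57 (Map2k7) to 0.22 (Mapk8ip1) and did not pass. Mapk8 and Mapk8ip1, which were upregulated between conditions, had log2 fold changes of −0.12 ± 0.20 (adjusted p = 0.742) and 0.22 ± 0.19 (adjusted p = 0.474, edgeR) between these cells.

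To set both kinds of injured cell beside uninjured RGCs, levels were also taken per 1000000 of the total UMIs, without TMM scaling. On this scale Mapk10 was 287 to 424 in uninjured samples, 336 to 418 in injured cells without Atf3 and 121 to 171 in injured cells with Atf3. Injured cells without Atf3 lay within the uninjured range. Mapk9 was 91.3 to 117 in uninjured samples, 49.4 to 99.3 in injured cells without Atf3 and 60.0 to 66.0 in injured cells with Atf3. Mapk8ip1 was 59.9 to 86.4 in uninjured samples and above that range in both kinds of injured cell (96.7 to 132 without and 115 to 127 with Atf3). Mapk8 was 45.7 to 61.4, 76.8 to 98.9 and 74.3 to 75.6. In the same order Map3k12 was 32.4 to 41.4, 45.9 to 81.8 and 28.9 to 29.4. Without Atf3 it lay above every uninjured sample, on only 28, 16 and 67 UMIs in injured 1, 2 and 3/4, and with Atf3 below. Map3k13 was 36.2 to 60.4, 52.6 to 69.9 and 26.4 to 30.9. Mapk8ip3 was 98.4 to 125, 82.4 to 90.5 and 118 to 152, so cells without Atf3 lay below every uninjured sample. Levels of the JNK3 gene thus differed with Atf3 among injured cells while those of the JNK1 and JIP1 genes lay above the uninjured range whether or not Atf3 was found. These values across conditions were not tested.

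**Figure D5:**
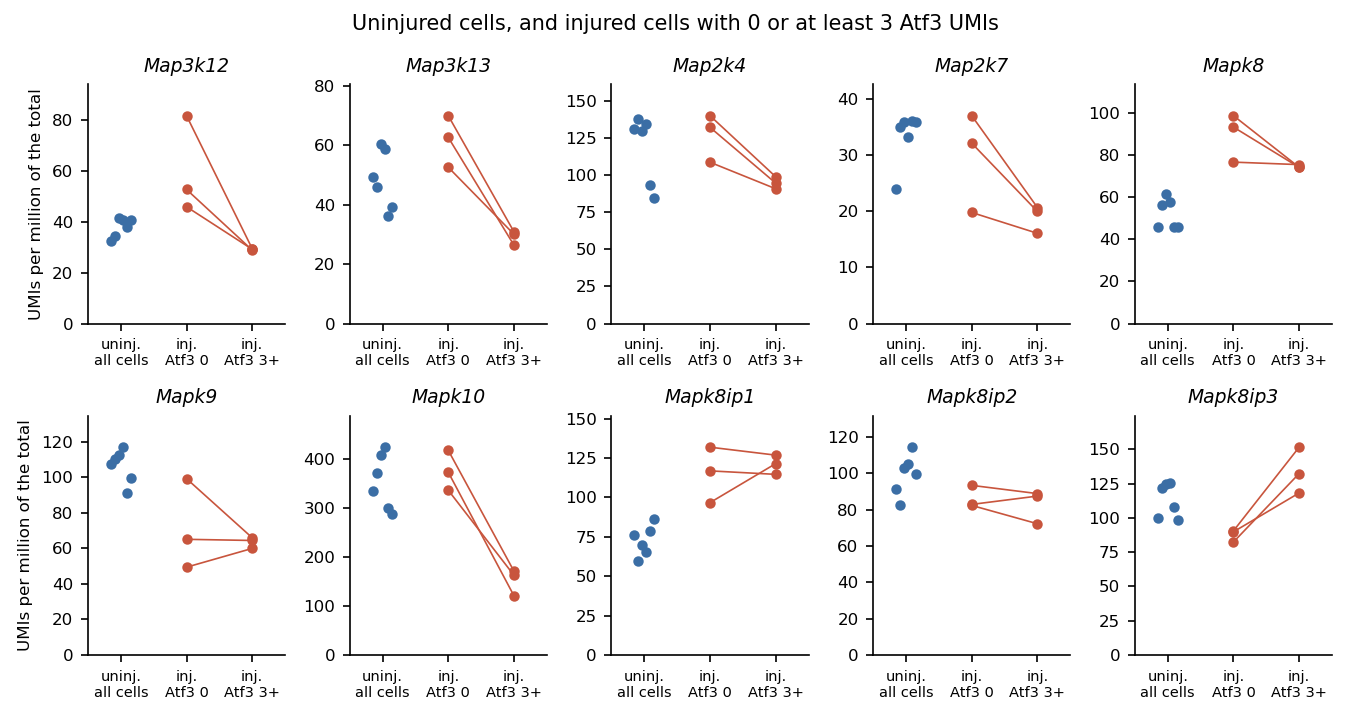
UMIs per 1000000 of the total (y axis, from 0, own scale in each panel) for each member in the 6 uninjured samples (blue) and in injured cells with 0 or at least 3 Atf3 UMIs (red, lines join the classes of a sample). Mapk10 falls from 336 to 418 in cells without Atf3 to 121 to 171 in cells with it, and Mapk8ip3 runs the opposite way in every sample.

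Injured cells without Atf3 differed in other ways that go with these results. They were shallower (median UMIs 7787 to 11412 in the 4 libraries, against 13101 to 16163), although thinning kept all 4 calls. Their median share of Malat1 RNA was 4.25 to 5.64%, against 6.59 to 8.57%, and that of ribosomal protein RNA 3.99 to 4.98%, against 5.48 to 6.13%. In injured 1 to 4, mCherry was seen in 3.23, 17.9, 74.4 and 73.0% of the cells without and in 8.92, 14.6, 91.0 and 87.6% of the cells with Atf3, a lower share without Atf3 in every library except injured 2. Per 1000000 UMIs of the total, Rbpms, a marker of RGCs, was 498 to 581 in the samples' cells without Atf3, 244 to 278 in those with Atf3 and 596 to 801 in uninjured samples. The 8 pan-RGC markers together went the other way, higher with Atf3 in every library. Their sum was 3972 to 4148 without and 4231 to 5908.5 with Atf3, and 6080 to 7778 in uninjured samples. Slc17a6 was 405 to 461 without and 415 to 562 with Atf3, and Pou4f1 was 74.0 to 119 and 75.7 to 108. The amacrine list summed to 101 to 145 without and 282 to 368 with Atf3 in the 4 libraries, and C1ql2 made up most of the latter sum (188, 176 and 238 in injured 1, 2 and 3/4). For the amacrine genes Tfap2b and Gad1 the gap differed between injured 1, 2 and 3/4. Tfap2b was 2.92, 0 and 3.43 without and 39.3, 15.6 and 4.81 with Atf3. Gad1 was 2.92, 0 and 5.48 without and 30.8, 20.1 and 6.47 with Atf3. In injured 3/4 these levels lay close together, but those of C1ql2 (48.0 without and 238 with Atf3) and Slc6a9 (11.7 and 22.7) did not. Cells with UMIs of at least 3 genes from any 1 list of another cell class made up at least 15.2% of the cells with Atf3 in each library. Among cells without Atf3 that share was at most 6.45%. Cells were not thinned for this count, and the cells with Atf3 were deeper. In uninjured 4, with the most UMIs per cell (median 34337), the share was 36.6%, and in uninjured 5, with the fewest uninjured (20437), it was 11.6%. The Müller glia list summed to 112 to 164 without and 318 to 486 with Atf3. The bipolar list summed to 126 to 247 without and 82.5 to 143 with Atf3, higher with Atf3 in injured 1 alone. Jun was 314 to 397 without and 471 to 538 with Atf3, above the uninjured 45.8 to 89.9 in both. The part of depth, Malat1 and cell type in the results was not tested beyond the thinned values.

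Uninjured RGCs were divided by Opn4 (melanopsin), which marks intrinsically photosensitive RGCs, a type known to survive ONC well. Only uninjured 3, 4 and 5 held at least 10 cells with 3 or more Opn4 UMIs (14, 12 and 10 cells). None of the 10 members passed between these cells and cells without Opn4 (edgeR with sample as a block), whereas 14.6% of all genes tested did, and limma-voom also called none. At an unadjusted p under 0.05 there was 1 member, Map3k13, at 31.7, 49.0 and 18.4 CPM with Opn4 and 61.3, 58.7 and 38.5 CPM without, lower in 3 of 3 samples (log2 fold change −0.68 ± 0.26, adjusted p = 0.0608).

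The DLK, LZK and JNK genes sit among 60 other genes of the same pathway in 7 lists, of which 55 were tested and 26 (47.3%) were called, near the 44.0% of all genes tested. Of the 55, 36.4% were higher and 10.9% lower, against 21.3% and 22.7% of all genes tested, with a median log2 fold change of 0.15. The lists that follow are small, and their counts are read against these same shares. They were chosen with earlier results of these data known, so their counts are descriptions and no test of the pathway. Among the 55 genes the largest changes were in the list of transcription factors. Of 9 transcription factors downstream of DLK and JNK, 5 were upregulated and none was downregulated (edgeR, adjusted p under 0.05), where 21.3% of all genes tested were higher and 22.7% lower. Atf3 rose from 0.808 ± 0.888 to 799 ± 36.9 CPM (log2 fold change 9.37 ± 0.44, adjusted p = 3.36e-08), Sox11, which promotes growth of some RGC axons, from 28.2 ± 4.32 to 1083 ± 85.1 CPM (5.27 ± 0.16, adjusted p = 1.85e-09), and Jun, the substrate that gave JNK its name, from 64.1 ± 21.9 to 510 ± 48.5 CPM (2.99 ± 0.24, adjusted p = 1.78e-06).

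Of 7 phosphatases that act on JNK and its relatives, 5 were upregulated and none was downregulated, beside the same 21.3% and 22.7% of all genes tested. Dusp1 rose from 21.2 ± 12.8 to 61.9 ± 14.1 CPM (log2 fold change 1.56 ± 0.39, adjusted p = 0.00642, edgeR) and Dusp8 from 52.3 ± 5.43 to 101 ± 13.2 CPM (0.96 ± 0.13, adjusted p = 8.82e-05). Dusp4, Dusp10 and Dusp16, named after their values were seen, had log2 fold changes of 1.38, 2.14 and 2.91.

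Upstream, MAP4Ks are kinases that can feed into MAP3Ks, and of 6 tested, 2 rose and 2 fell (all genes tested: 21.3% higher, 22.7% lower). Tnik rose from 207 ± 43.4 to 1416 ± 193 CPM (log2 fold change 2.78 ± 0.19, adjusted p = 6.18e-07, edgeR), and Map4k4, whose inhibition is known to protect neurons in culture, from 56.9 ± 16.9 to 146 ± 8.43 CPM (1.36 ± 0.22, adjusted p = 4.48e-04). The falls were Map4k2 and Mink1, named after their values were seen, with log2 fold changes of −1.09 and −0.52. Of 14 other MAP3Ks and TAO kinases, 3 rose and 1 fell, again beside 21.3% and 22.7% of all genes tested. Map3k3 rose by 0.40 (adjusted p = 0.0489, called in 9 of 23 other settings), and Map3k9, Map3k20 and Map3k6, named after their values were seen, had log2 fold changes of 0.86, 1.98 and −2.34. Map3k6 was near the floor, at 1.58 to 4.21 CPM in uninjured and 0.350 to 0.674 CPM in injured samples. MAP3K genes other than DLK and LZK thus gave called changes of either sign, with the fall resting on this low gene.

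Of 6 genes for DLK turnover, folding and palmitoylation, Hsp90aa1, a chaperone that DLK depends on, rose from 1154 ± 172 to 2848 ± 567 CPM (log2 fold change 1.303 ± 0.18, adjusted p = 1.39e-04, edgeR), and the others, among them the ubiquitin ligase genes Mycbp2 and Fbxo45, did not pass. Of 4 other JNK scaffolds, Sh3rf1 rose by 0.47 ± 0.16 (adjusted p = 0.0286, called in 16 of 23 other settings). Among 9 ERK and p38 kinases 3 rose and 3 fell, beside 21.3% and 22.7% of all genes tested. Mapk3 (ERK1) rose by 0.87 ± 0.20 (adjusted p = 0.00391), Mapk14 (p38 alpha) by 0.82 ± 0.11 (adjusted p = 1.23e-04), and Map2k1 (MEK1) had a log2 fold change of −1.06 ± 0.25 (adjusted p = 0.00493, edgeR). Map2k3, Mapk12 and Map2k6, named after their values were seen, had log2 fold changes of 2.07, −0.85 and −1.90.

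The profiles most like those of DLK and JNK3 were sought among 5810 genes by the root mean square difference of log2 CPM over the 9 samples, after the mean of each gene was subtracted. For Map3k12 the nearest were Lrrc49 (0.0404), Cltc (0.0525) and Ttc19 (0.0710), with log2 fold changes of −0.19, −0.17 and −0.20. For Mapk10 they were Grk3 (0.0465), Cdk14 (0.0652) and Cry2 (0.0759), with −0.91, −1.0 and −0.87. These distances describe 9 samples that share conditions and libraries.

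The 250 bases before the start of each member's canonical transcript were searched on both strands for 4 motifs, the AP-1 motif TGANTCA and the cAMP response element TGACGTCA, which Jun and ATF family proteins bind, TGATGCAA, and the E-box CACGTG. No match overlapped another. TGANTCA was in the window of Map3k12 (and in 6.17% of 21770 protein-coding genes), TGACGTCA in those of Map3k13 and Mapk10 (1.70%), CACGTG in that of Mapk8 (6.26%), and TGATGCAA in none (0.887%). The windows of the 3 members whose RNA was lower in cells with Atf3 are shown, with the match in capitals, at chr15:102425708-102425957 (Map3k12, reverse strand), chr16:21612846-21613095 (Map3k13, forward strand) and chr5:103359172-103359421 (Mapk10, reverse strand) of GRCm39.
Map3k12: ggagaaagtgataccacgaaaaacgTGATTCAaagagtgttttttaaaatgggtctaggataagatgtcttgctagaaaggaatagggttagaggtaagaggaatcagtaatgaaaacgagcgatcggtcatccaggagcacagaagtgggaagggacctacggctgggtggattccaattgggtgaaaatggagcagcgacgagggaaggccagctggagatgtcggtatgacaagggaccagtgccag
Map3k13: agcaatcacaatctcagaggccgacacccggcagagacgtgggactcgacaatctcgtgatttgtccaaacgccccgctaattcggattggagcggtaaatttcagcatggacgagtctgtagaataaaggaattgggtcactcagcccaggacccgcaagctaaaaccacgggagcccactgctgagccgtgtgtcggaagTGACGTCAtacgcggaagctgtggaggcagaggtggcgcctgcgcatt
Mapk10: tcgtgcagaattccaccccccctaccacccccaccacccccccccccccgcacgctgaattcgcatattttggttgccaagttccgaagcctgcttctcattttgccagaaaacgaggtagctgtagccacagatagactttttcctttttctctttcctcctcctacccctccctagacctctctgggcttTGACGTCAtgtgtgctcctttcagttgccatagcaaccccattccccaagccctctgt
The match lay 225 to 219 bases before the start in Map3k12, 48 to 41 in Map3k13 and 58 to 51 in Mapk10. Other annotated transcripts of Map3k12 and Mapk10 begin up to 1441 and 204 bases further upstream, so these windows are not their only possible promoters. A match is a description of the letters, and binding was not measured.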

How the data were processed

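Raw UMI counts of the cells called RGCs were deposited by the authors, whose reads had been mapped to mm39 (Cell Ranger 7.0.1 per the processing notes). They held 1683 uninjured and 1609 injured cells. The paper gives the same number of uninjured RGCs but fewer injured ones, and the sources used here do not say why. Every cell met the stated limits (at least 500 genes, at most 20% mitochondrial UMIs, at most 150000 UMIs). Kit, sequencer, software and depletion differ between paper and labels. The paper gives v2, HiSeq, an older CellRanger for base calls, mapping and counting, and depletion of macrophages and amacrine cells. The labels and processing notes give v3, NovaSeq, Cell Ranger 7.0.1 and depletion of macrophages. Counting of intronic reads is not given in the sources used here. Doublets were not called again. Libraries held 2839693 to 23180399 UMIs.

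Counts were summed per library (Python 3.11.15, numpy 2.4.6, scipy 1.17.1, pandas 2.3.3). Conditions were compared in R 4.3.3 with edgeR 4.0.16 (filterByExpr, TMM, robust quasi-likelihood test, checked on simulated counts). DESeq2 1.42.0, limma-voom (limma 3.58.1) and other alternatives follow below. Cells were thinned at random to 8000 UMIs. A split by Spp1 could not be fitted, because a single uninjured sample had at least 10 cells on both sides. Pathway genes were named as all members, the 2 largest rises and 2 largest falls per list past the threshold whose average log2 CPM reached 5, and Jun and Atf3, with the 3 nearest profiles of Map3k12 and Mapk10. Members and lists were chosen with earlier results of these data known.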

Additional observations from a re-analysis of the deposited data

Results flagged for a closer look

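Atf3 stood at 2.51 CPM in uninjured 4, far above the other 5 uninjured samples (0 to 0.906 CPM) by Dixon's test at 95%. Of 35 groups of 4 to 10 samples tested in this way, chance alone flags about 1.75, and this was the only flag. The uninjured level of Atf3 stayed far below that of every injured sample (761 to 835 CPM).

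UMIs of mCherry, which is outside the genes the report tests, were found in 7.99% of the cells of injured 1, 15.02% of injured 2, 86.0% of injured 3 and 84.3% of injured 4, and in no uninjured cell. The labels name no vector for these libraries, although AAV2 vectors with mCherry were used in other experiments of the study, so an effect of a vector on the injured values cannot be told apart from that of injury in injured 3 and 4. Without injured 3 and 4, Mapk8, Mapk9, Mapk10, Mapk8ip1 and Map2k7 were still called (log2 fold changes 0.63, −0.62, −0.78, 0.80 and −0.77, edgeR), and Map3k13 was not (−0.46, adjusted p = 0.0926).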

How the results depend on the processing

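Over 23 alternatives of the injury comparison the number of genes called ran from 3528 to 8307 (6256 as reported), and from 4961 to 6420 when a sample was left out. The lowest, 3528, came from cells with 3 to 5% Malat1 UMIs, where fewer cells (495 uninjured and 260 injured) and fewer genes (10725) were tested. Uninjured 5 and 6 gave 7 and 8 of these cells. Between 4 and 7 members were called (4 to 6 when a sample was left out). Mapk8, Mapk9, Mapk10 and Mapk8ip1 were called in all 23 alternatives, Map2k7 in 20 and Map3k13 in 12, each in the same direction. Map3k12, Mapk8ip2 and Mapk8ip3 were called in none, and Map2k4 in 2, both over libraries 1 to 4 with injured 3 and 4 as separate samples. Map2k4 turned to 0.0108 with cells thinned to 8000 UMIs (adjusted p = 0.969), and the cause was not tested.

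With libraries 1 to 4 of each condition, the replicate block gave 8307 calls against 8230 without the block. The block left every member on the same side of the threshold, Map2k4 included (−0.28 with the block, adjusted p = 0.0182, edgeR, and −0.29 without). Same-numbered libraries did not deviate together (r −0.0561 to 0.0142, and 0 of 4 numbers gave libraries that correlated best with each other), so the libraries share only a number.

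With all 10 libraries as separate samples, 3 ratios passed after adjustment: Mapk10 to Mapk8 plus Mapk9 (−0.84), Mapk8 to Mapk9 (1.28) and Mapk8ip1 to Mapk8ip3 (0.57). That setting counts shared cells of injured 3 and 4 as independent. The split by Atf3 gave 939 to 1933 calls when an injured sample was left out (2213 as reported; 939 without injured 2) and 2 to 4 members called. The split by Opn4 gave 844 calls in thinned cells and 894 to 1509 when a sample was left out (1912 as reported). The split by Spp1 and its alternatives were not run. Limits and tests cover the spread between libraries only.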
